A study of Drosophila melanogaster with 6 samples.

Results

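The *dpr* and *DIP* genes encode a family of neuronal cell-surface recognition proteins, and their transcript levels were examined in adult *Drosophila* ventral nerve cords (VNCs) with and without a neuroblast (NB) tumor. The family was taken as every gene of the count table whose symbol is *dpr* followed by a number or starts with *DIP-*. This gave 30 of 17494 genes, made up of 21 *dpr* genes and 9 *DIP* genes. The study amplified NBs into tumors and asked how the RNA-binding protein Syncrip (Syp) shapes the tumor cells, and 2 RNA-seq libraries were made for each of 3 conditions. In *poxn > prosRNAi, SypRNAi* tumors, RNAi transgenes against *prospero* (*pros*) and *Syp* were driven together with a *dicer2* transgene and a nuclear mCherry by *poxn-GAL4*. In *poxn > prosRNAi* tumors, only *pros* was knocked down with the same driver, *dicer2* and mCherry. The third condition was wild-type VNCs, for which the labels give no driver or transgene and the methods no further description. The labels give an age of 6 days for all 6 libraries, whereas the methods give an older age for the tumor-bearing flies.

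The driver is active in a few thoracic NBs and silent in their neurons, so the tumors grew from these NBs inside a VNC that also held its normal neurons, glia and other cells. Each tumor sample was a pool of VNCs from flies of both sexes, and the methods describe the 2 samples per condition as technical replicates. The p-values below therefore measure the spread between these samples, which may not include the differences between animals. In such bulk samples, fewer cells of a type and less RNA per cell cannot be told apart.

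Dpr and DIP proteins belong to the immunoglobulin superfamily and sit on the surface of neurons. A given Dpr binds particular DIPs, so that neighboring neurons, or a motor neuron and its muscle, recognize each other by the pair they carry. The family is known for its part in synaptic partner choice, layer targeting and neuron survival, mostly from the larval neuromuscular junction and the optic lobe, where each gene is expressed in its own subset of neurons. NBs are the stem cells that give rise to these neurons.

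The libraries held 86098417 to 128107088 counts on exons, and family members had from 184 counts, for *DIP-iota* in a *poxn > prosRNAi* library, to 28568 counts, for *dpr12* in a wild-type library. Counting error alone was thus 7.37% or less for every value of a member. Levels are given as CPM, counts set to a common library size by TMM, a scaling method that relies on the genes that differ little between libraries. The knocked-down *pros* was at 1045 and 1254 CPM in *poxn > prosRNAi, SypRNAi* libraries, at 736 and 808 CPM in *poxn > prosRNAi* libraries and at 2505 and 2335 CPM in wild-type libraries. *Syp* was at 422 and 459 CPM, 2066 and 1762 CPM, and 699 and 689 CPM in the same order of libraries. Each targeted transcript was thus below its wild-type level where it was targeted. Between the tumors the log2 fold change was -2.12 for *Syp* and 0.58 for *pros* (edgeR adjusted p = 0.027 for *pros*). Against the wild type *pros* changed by -1.64 in *poxn > prosRNAi* tumors, where the neuron markers named below had a median of -2.44. The part of the knockdown itself in the lower level of *pros* was not tested. The 7 NB markers, among them *dpn* and *mira*, summed to 1902 to 2066 CPM, 2438 to 2602 CPM and 19.7 to 21.6 CPM in the 3 conditions, and *dpn* reached only 0.74 and 0.50 CPM in the wild type. The 14 neuron markers, among them *elav*, *brp* and *VGlut*, summed to 3522 to 4733 CPM, 2572 to 3014 CPM and 13607 to 13792 CPM, and none was at 0 in a tumor library.

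Nearly the whole family was lower in the tumors than in the wild type, and *DIP-alpha* was the only member called higher. The 30 genes together took 0.0441% and 0.0563% of the counts of the *poxn > prosRNAi, SypRNAi* libraries, 0.0319% and 0.0372% of the *poxn > prosRNAi* libraries, and 0.167% and 0.185% of the wild-type libraries. In summed CPM the family reached 432 and 577 in *poxn > prosRNAi, SypRNAi* tumors, 348 and 413 in *poxn > prosRNAi* tumors, and 1571 and 1609 in the wild type. The summed level of the *dpr* genes alone was 304 and 407 CPM, 224 and 263 CPM, and 1261 and 1285 CPM. The plot of all members gives the values behind these sums.

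**Figure D1:**
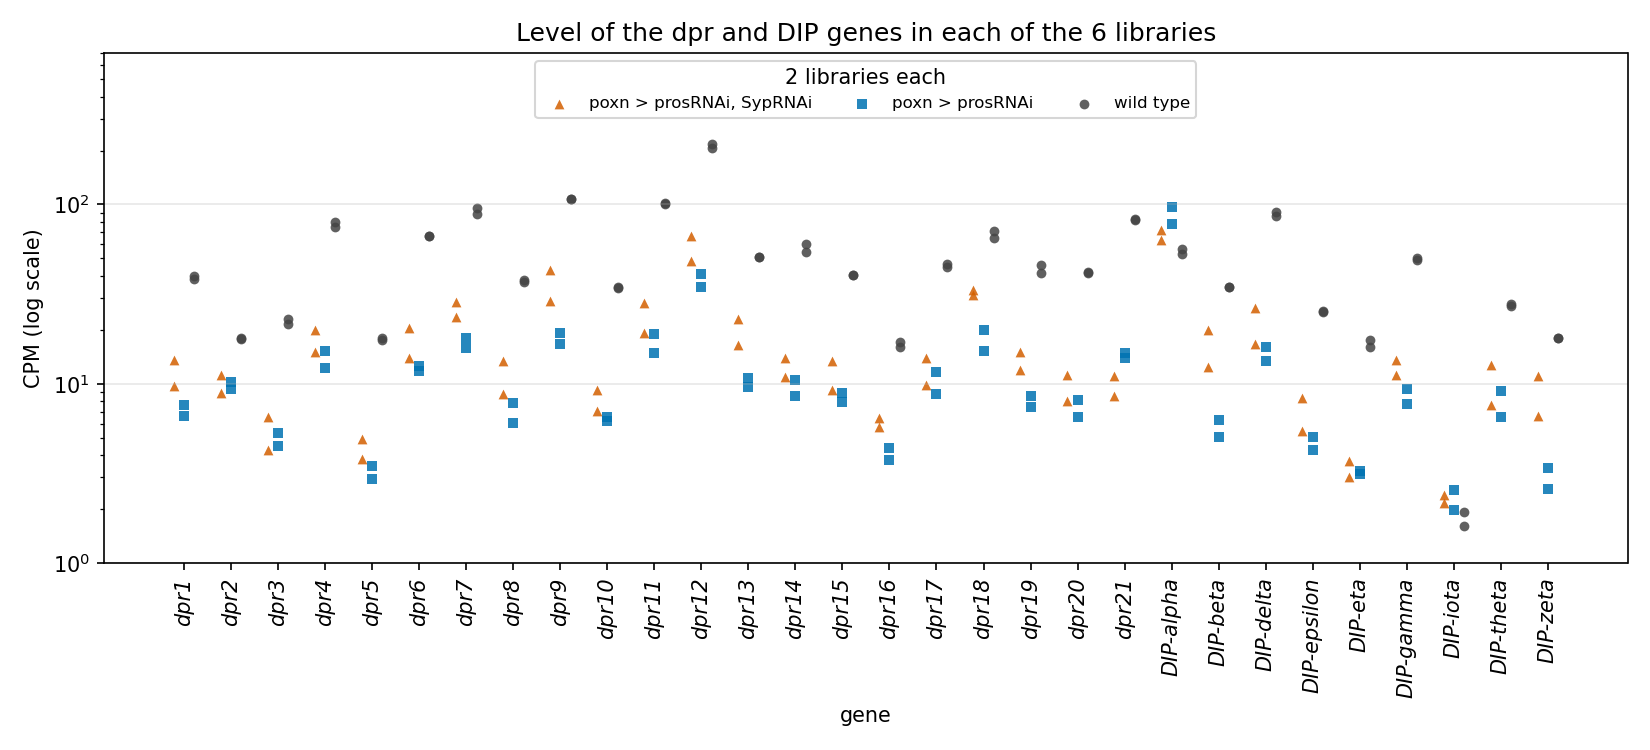
Level of each of the 30 *dpr* and *DIP* genes (x axis) in CPM on a log axis (y axis), with a point for each of the 2 libraries of *poxn > prosRNAi, SypRNAi* tumors (triangles), *poxn > prosRNAi* tumors (squares) and the wild type (circles). The tumor points lie below both wild-type points for 28 genes, and above both for *DIP-alpha* and *DIP-iota*.

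Levels of different genes were compared per length of exon, as RPKM (CPM divided by the length of the gene's exons in kilobases). In the wild type the highest level per length was that of *dpr21*, followed by *dpr7* and *dpr12*. *dpr21* (FBgn0260995, chromosome 2R, positions 3066499 to 3191011 on Release 6 of the genome, as for all positions here) has a short annotated exon length of 993 bases. It was at 8.57 and 11.1 RPKM in *poxn > prosRNAi, SypRNAi* libraries, at 14.0 and 14.9 RPKM in *poxn > prosRNAi* libraries, and at 83.1 and 82.6 RPKM in wild-type libraries. *dpr7* (FBgn0053481), the only member on chromosome 4 (positions 247124 to 253329), was at 15.6 and 19.0 RPKM, 10.5 and 11.9 RPKM, and 58.3 and 63.2 RPKM in the same conditions. *dpr12* (FBgn0085414, chromosome 2R, positions 5804712 to 5860831), whose product is the ligand of DIP-delta, was at 10.3 and 14.1 RPKM, 7.38 and 8.74 RPKM, and 43.8 and 45.9 RPKM. In these 3 genes both libraries of each tumor lay below both wild-type libraries. This held for 44.1% of all genes tested in *poxn > prosRNAi, SypRNAi* and 45.9% in *poxn > prosRNAi* tumors. The order of the 3 genes in the wild type was the same in both libraries.

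The highest members of the wild type per length stayed among the highest in the tumors, and single members changed rank. *DIP-alpha* ranked 5 of 30 per length in *poxn > prosRNAi, SypRNAi* tumors and 3 of 30 in *poxn > prosRNAi* tumors, against 25 of 30 in the wild type. Its share of the family's summed RPKM was 5.69% and 4.89% in *poxn > prosRNAi, SypRNAi* libraries, 8.78% and 9.25% in *poxn > prosRNAi* libraries, and 1.17% and 1.21% in wild-type libraries. *dpr21* ranked 4, 1 and 1 in the same conditions, *dpr7* 1, 2 and 2, *dpr12* 3, 4 and 3, and *dpr18* 2, 5 and 4. *DIP-iota*, the lowest member in the wild type, ranked 28, 23 and 30.

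The comparison of *poxn > prosRNAi* tumors with the wild type asks how the family differed where a tumor had formed. Each comparison was tested with the quasi-likelihood test of edgeR on its 4 libraries, and an adjusted p under 0.05 was counted as a call. Of the 30 genes, 28 were lower, 1 was higher and 1 was not called. Over the 14162 genes tested in this comparison, 40.7% were called lower and 41.9% were called higher. All 28 also passed an adjusted p under 0.001, where 24.9% of all genes were called lower. In these 28 genes both tumor libraries lay below both wild-type libraries, which held for 45.9% of all genes tested. The median log2 fold change of the family was -2.44, a level of 18.4% of the wild type, beside a median of 0.0084 over all genes tested.

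The median of these changes was close to that of the neuron markers. The markers also had a median of -2.44, with a range of -2.77 to -0.62, and 14 of 14 were lower. The family's changes lay in a narrow band. In 27 members the log2 fold change was between -2.61 and -1.82, so that 16.4% to 28.3% of the wild-type level was left. The glia markers had a median of -2.28 with 9 of 10 lower and 1 higher, the muscle markers a median of -2.34 with 12 of 12 lower, and the fat body markers a median of -2.24 with 6 of 6 lower. The part of these cell types in the levels of the family was not tested. Of 34 other recognition genes, 30 were lower and 4 higher, with a median of -2.33. They comprised the *beat* genes, *side*, the *Dscam* genes, *Fas2* and other immunoglobulin superfamily members, among them *kirre*, *rst*, *sns* and *hbs*. The 4 higher genes were *Ama*, *plum*, *Nrg* and *Cont*, which encode immunoglobulin superfamily proteins. *Ama* was the one that changed most, by 4.17 ± 0.14 on the log2 scale (SE, edgeR adjusted p = 7.6e-06).

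At the low end of the band were *DIP-beta*, *DIP-delta* and *DIP-zeta*, which encode receptors of the DIP branch. The ligand genes *dpr11*, *dpr14* and *dpr9* lay close to them, at -2.58, -2.58 and -2.57. *DIP-beta* (FBgn0259245, chromosome X, positions 21422115 to 21457738) was at 5.07 and 6.28 CPM in *poxn > prosRNAi* tumors and at 34.6 and 34.8 CPM in the wild type. The log2 fold change amounted to -2.61 ± 0.11 (SE, edgeR adjusted p = 1.2e-05). *DIP-zeta* (FBgn0051708, chromosome 2L, positions 9051631 to 9071164) was at 2.59 and 3.38 CPM in these tumors and at 18.0 CPM in each wild-type library, at a log2 fold change of -2.58 ± 0.15 (SE, edgeR adjusted p = 2.7e-05). In both genes the tumor libraries were several times below the wild-type libraries, and the wild-type libraries were almost equal. *DIP-delta* is described with its ligand below.

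*dpr2*, *DIP-iota* and *DIP-alpha* lay outside the band. *dpr2* (FBgn0261871, chromosome 2L, positions 10917015 to 10964153) belongs to the Dprs that bind DIP-eta, DIP-theta and DIP-iota. It was at 10.2 and 9.39 CPM in *poxn > prosRNAi* tumors and at 18.0 and 17.8 CPM in the wild type. *dpr2* was thus lower in both tumor libraries, but 55.0% of the wild-type level was left (log2 fold change -0.86 ± 0.080 SE, edgeR adjusted p = 0.00019). This value lies within the range of the neuron markers, -2.77 to -0.62. *DIP-iota* (FBgn0031837, chromosome 2L, positions 6617134 to 6621700) was at 1.98 and 2.57 CPM in *poxn > prosRNAi* tumors and at 1.60 and 1.92 CPM in the wild type. Both tumor libraries were above both wild-type libraries, which held for 46.4% of all genes tested. Its log2 fold change of 0.37 (95% confidence interval -0.18 to 0.91) did not pass the test (edgeR adjusted p = 0.16).

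*DIP-alpha* (FBgn0052791, chromosome X, positions 3507245 to 3571649) encodes the receptor of Dpr6 and Dpr10, and is known from motor neurons and from interneurons of the medulla. It was at 78.3 and 96.3 CPM in *poxn > prosRNAi* tumors and at 53.0 and 56.3 CPM in the wild type. Both tumor libraries lay above both wild-type libraries, and *DIP-alpha* rose by a log2 fold change of 0.68 ± 0.11 (SE, edgeR adjusted p = 0.0023). It stayed called higher under every alternative tried at 0.05, with a log2 fold change of 0.39 to 0.84, and did not pass 0.001, where 29.7% of all genes were called higher. Relative to the neuron markers of the same library, its level was 8.66 and 8.72 times that in the wild type, which for the members in the band was 0.839 to 1.63 times. For the other members outside the band it was 6.80 and 7.21 times (*DIP-iota*) and 3.45 and 2.59 times (*dpr2*). Exons of *CG2875* and *ppk8* cover 1.76% of the exon length of *DIP-alpha*, and reads there were counted for each of the overlapping genes. The NB markers were higher in the same tumors, 7 of 7 with a median log2 fold change of 7.87, and their part in the level of *DIP-alpha* was not tested.

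**Figure D2:**
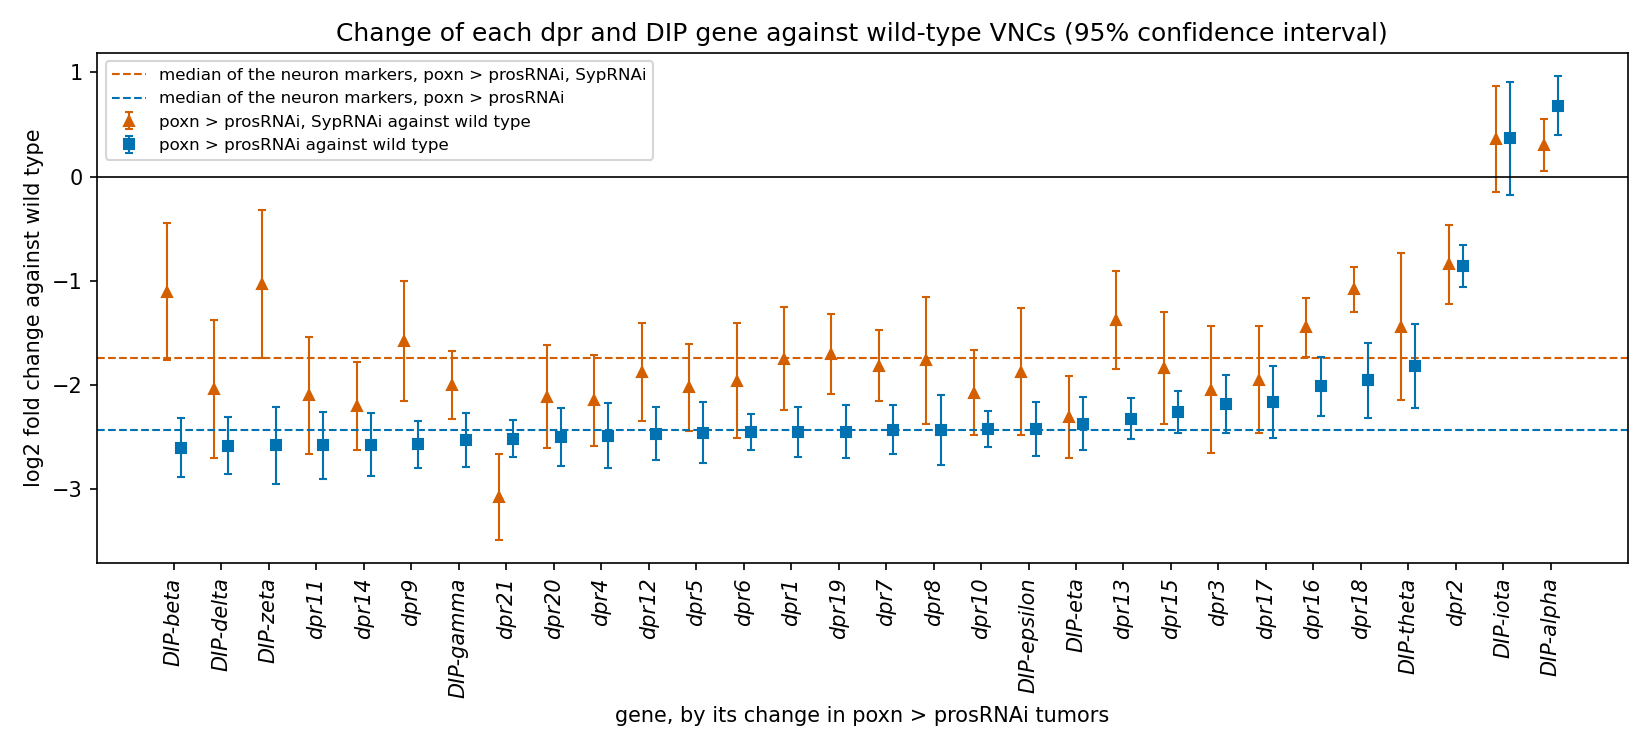
Log2 fold change against the wild type (y axis) of each member (x axis, ordered by its change in *poxn > prosRNAi* tumors), for *poxn > prosRNAi, SypRNAi* tumors (triangles) and *poxn > prosRNAi* tumors (squares), with 95% confidence intervals from edgeR and dashed lines at the medians of the 14 neuron markers. In *poxn > prosRNAi* tumors 27 members lie between -2.61 and -1.82, and *dpr2*, *DIP-iota* and *DIP-alpha* lie above them. In *poxn > prosRNAi, SypRNAi* tumors the same 27 members lie between -3.08 and -1.03.

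In *poxn > prosRNAi, SypRNAi* tumors against the wild type, the family was again lower, and the 27 members of the band had log2 fold changes of -3.08 to -1.03. There were 28 lower genes, 1 higher gene and 1 gene not called at an adjusted p under 0.05, beside 36.7% lower and 39.8% higher over the 14289 genes tested. The same wild-type libraries served in this comparison and in that of *poxn > prosRNAi* tumors, so that their results are not independent. At an adjusted p under 0.001 the number of lower members was 15, where 14.4% of all genes were called lower. Both tumor libraries were below both wild-type libraries in 28 members, as in 44.1% of all genes tested, and above them in 2 members, as in 46% of all genes tested. The median of the family was -1.86, which is 27.6% of the wild-type level, beside 0.043 over all genes tested. The neuron markers had a median of -1.74 with 13 of 14 lower, and the other recognition genes a median of -1.60 with 29 of 34 lower and 4 higher. The glia markers had a median of -1.78 with 8 of 10 lower and 2 higher, and the muscle markers a median of 0.81 with 7 of 12 higher and 2 lower. The fat body markers had a median of -4.85 with 5 of 6 lower and 1 higher.

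*dpr21* had the lowest value of this comparison. It was at 8.51 and 11 CPM in *poxn > prosRNAi, SypRNAi* tumors and at 82.5 and 82.1 CPM in the wild type, so that 11.8% of the wild-type level was left (log2 fold change -3.08 ± 0.16 SE, edgeR adjusted p = 0.00013). Relative to the neuron markers its level was 0.425 and 0.367 times that in the wild type. *dpr2* was at 8.83 and 11.2 CPM in these tumors, and with 55.7% of the wild-type level (log2 fold change -0.84 ± 0.14 SE, edgeR adjusted p = 0.0051) it had the highest remaining level of the 28 lower genes. *DIP-zeta*, *dpr18* and *DIP-beta* came next, with 48.9%, 47.2% and 46.5% of the wild-type level. *DIP-alpha* was at 63.3 and 71.9 CPM, above both wild-type libraries, at a log2 fold change of 0.30 ± 0.095 (SE, edgeR adjusted p = 0.039). This call on *DIP-alpha* was lost with 4 other ways of scaling or testing and without the second *poxn > prosRNAi, SypRNAi* library or either wild-type library, where its value stayed above 0. *DIP-iota* was at 2.16 and 2.39 CPM, and its log2 fold change of 0.36 did not pass the test (edgeR adjusted p = 0.15).

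The comparison of *poxn > prosRNAi, SypRNAi* with *poxn > prosRNAi* tumors asks what the loss of Syp changed within tumors. The level of *pros* also differed between these tumors (log2 fold change 0.58). A subset of the family was higher when Syp was also knocked down. Of 30 genes, 7 rose at an adjusted p under 0.05 in edgeR, and 0 fell. Over the 13703 genes tested, 10.9% were called higher and 12.4% lower. Scaling by library totals alone turned this split of 1489 higher and 1701 lower genes into 2435 higher and 956 lower ones (17.8% and 6.98%), and 12 members were then called higher. At an unadjusted p under 0.05, 13 members were higher and 2 lower, beside 19.3% and 20.4% of all genes tested. DESeq2's Wald test called 12 members higher and 2 lower, beside 14.6% and 15.2% of all genes tested. No gene of the 13703 passed an adjusted p under 0.001 in edgeR's test. Both *poxn > prosRNAi, SypRNAi* libraries were above both *poxn > prosRNAi* libraries in 20 members and below them in 2, which held for 33.7% and 34% of all genes tested. The median log2 fold change of the family was 0.50, beside 0.016 over all genes tested. It was 0.20 without the second *poxn > prosRNAi, SypRNAi* library and 0.69 without the first, and 0.37 and 0.62 without the first and the second *poxn > prosRNAi* library.

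The 7 higher genes were *DIP-zeta*, *DIP-beta*, *dpr9*, *dpr13*, *dpr18*, *dpr19* and *dpr7*. The largest changes were those of the receptor genes *DIP-zeta* and *DIP-beta*. *DIP-zeta* was at 6.60 and 11 CPM in *poxn > prosRNAi, SypRNAi* tumors and at 2.59 and 3.38 CPM in *poxn > prosRNAi* tumors, a log2 fold change of 1.56 ± 0.30 (SE, edgeR adjusted p = 0.028). *DIP-beta* was at 12.4 and 20.0 CPM in *poxn > prosRNAi, SypRNAi* tumors and at 5.07 and 6.28 CPM in *poxn > prosRNAi* tumors, a log2 fold change of 1.51 ± 0.27 (SE, edgeR adjusted p = 0.022). In both genes the lower of the libraries with *Syp* knockdown was well above the higher of the others, although the libraries with *Syp* knockdown also lay far apart.

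Of the ligand genes, *dpr9* (FBgn0038282, chromosome 3R, positions 15054930 to 15077206) was at 28.9 and 43.2 CPM in *poxn > prosRNAi, SypRNAi* tumors and at 16.8 and 19.2 CPM in *poxn > prosRNAi* tumors, a log2 fold change of 1.00 ± 0.21 (SE, edgeR adjusted p = 0.032). *dpr13* (FBgn0034286, chromosome 2R, positions 17975122 to 18007902) was at 16.6 and 22.9 CPM against 9.58 and 10.7 CPM, at a log2 fold change of 0.96 ± 0.18 (SE, edgeR adjusted p = 0.025). *dpr18* (FBgn0030723, chromosome X, positions 16063738 to 16070304) was at 31.3 and 33.4 CPM against 15.2 and 19.9 CPM. Its log2 fold change was 0.89, and unlike the others it differed more between the *poxn > prosRNAi* libraries than between those with *Syp* knockdown. *dpr19* (FBgn0032233, chromosome 2L, positions 10376168 to 10379905) was at 11.9 and 15.0 CPM in *poxn > prosRNAi, SypRNAi* tumors and at 7.42 and 8.55 CPM in *poxn > prosRNAi* tumors, with a log2 fold change of 0.75. *dpr7* was at 23.6 and 28.7 CPM in *poxn > prosRNAi, SypRNAi* tumors and at 15.9 and 18.0 CPM in *poxn > prosRNAi* tumors, with a log2 fold change of 0.63, the smallest of the 7. The adjusted p-values of *dpr18*, *dpr19* and *dpr7* were 0.019, 0.032 and 0.030 in edgeR. The 7 genes lie on 5 chromosome arms, and the closest of them, *DIP-zeta* and *dpr19* on 2L, are 1305004 bases apart.

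These 7 calls rested on both *poxn > prosRNAi* libraries. Without the first or without the second of them 0 members were called, and the whole comparison then had 107 or 1 genes called higher (0.753% and 0.00701%). The log2 fold changes of the 7 genes were then 0.53 (*dpr7*) to 1.37 (*DIP-zeta*) without the first and 0.72 (*dpr7*) to 1.77 (*DIP-zeta*) without the second. Without the second *poxn > prosRNAi, SypRNAi* library 5 of the 7 were called, *dpr7* and *dpr19* not, beside 7.5% of all genes called higher. Without the first, 16 members were called higher, beside 10.6% of all genes. All 30 members were higher in the second than in the first *poxn > prosRNAi, SypRNAi* library, by a median of 1.37 times, as were 13 of 14 neuron markers, by a median of 1.38 times. In *poxn > prosRNAi* libraries 28 of 30 members were higher in the second library, by a median of 1.19 times, again with 13 of 14 neuron markers and a median of 1.19 times. Over all genes, 53.0% were higher in the second *poxn > prosRNAi, SypRNAi* library and 49.9% in the second *poxn > prosRNAi* library. The neuron markers themselves had a median log2 fold change of 0.64 between the tumors, with 5 higher and 1 lower, and reached a median of 24.4% and 36.4% of their wild-type level in *poxn > prosRNAi, SypRNAi* libraries and 16.5% and 20.2% in *poxn > prosRNAi* libraries. The muscle markers had a median of 3.29 with 11 of 12 higher, and summed to 1149 and 1940 CPM in *poxn > prosRNAi, SypRNAi* libraries, against 218 and 216 CPM in *poxn > prosRNAi* libraries. The glia markers had a median of 0.17 with 3 of 10 higher and 2 lower, and the NB markers a median of -0.24 with 3 of 7 lower and 1 higher. The fat body markers had a median of -2.68 with 5 of 6 lower and 1 higher, and summed to 332 and 242 CPM in *poxn > prosRNAi, SypRNAi* libraries, against 1564 and 990 CPM in *poxn > prosRNAi* libraries. The part of these cell types in the change of the family was not tested. Of the 34 other recognition genes, 13 were higher and 2 lower between the tumors, with a median of 0.58. Among the higher ones were *hbs*, with a log2 fold change of 1.75, and *klg*, with 0.94, and the lower ones were *Lac*, with -1.06, and *Fas3*, with -0.82.

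**Figure D3:**
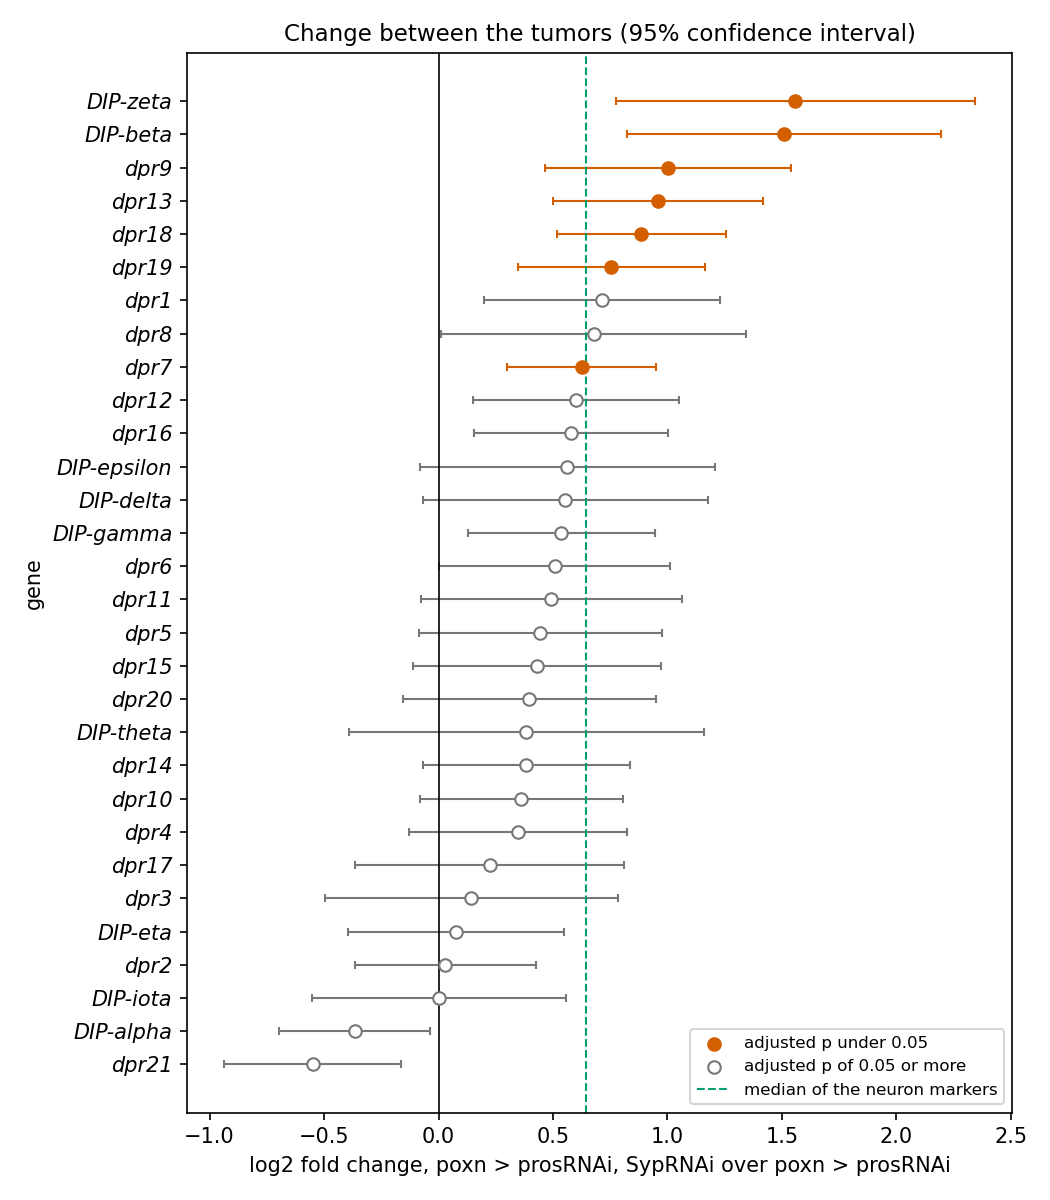
Log2 fold change of *poxn > prosRNAi, SypRNAi* over *poxn > prosRNAi* tumors (x axis) for each member (y axis), with 95% confidence intervals from edgeR, filled where the adjusted p was under 0.05, and a dashed line at the median of the 14 neuron markers (0.64). The 7 filled points run from 0.63 (*dpr7*) to 1.56 (*DIP-zeta*), and *dpr21* and *DIP-alpha* are the only members below 0.

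Only *dpr21* and *DIP-alpha* had a negative value between the tumors. *dpr21* was at 8.51 and 11 CPM in *poxn > prosRNAi, SypRNAi* tumors and at 13.9 and 14.8 CPM in *poxn > prosRNAi* tumors, with a log2 fold change of -0.55 (95% confidence interval -0.93 to -0.17, edgeR adjusted p = 0.058). *DIP-alpha* was at 63.3 and 71.9 CPM against 78.3 and 96.3 CPM, with a log2 fold change of -0.37 (95% confidence interval -0.70 to -0.036, edgeR adjusted p = 0.10). In both genes the *poxn > prosRNAi, SypRNAi* libraries were below the others, as in 34% of all genes tested, and neither passed the threshold. Under the alternatives the adjusted p ran from 0.011 to 0.23 for *dpr21* and from 0.031 to 0.32 for *DIP-alpha*. *dpr2* and *DIP-iota*, the other members outside the band against the wild type, had values near 0 between the tumors, 0.030 (95% confidence interval -0.36 to 0.42) and 0.0031 (-0.55 to 0.56), and their libraries overlapped.

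Known binding partners of DIP-alpha, DIP-gamma and DIP-delta were then set side by side. *DIP-beta* and *DIP-zeta*, the genes that changed most between the tumors, were not set beside the genes of their partners. In the DIP-alpha group, the receptor gene and its ligand genes differed in direction against the wild type. *dpr6* (FBgn0040823, chromosome 3L, positions 9974651 to 10139360) was at 14.0 and 20.5 CPM in *poxn > prosRNAi, SypRNAi* tumors, at 11.8 and 12.5 CPM in *poxn > prosRNAi* tumors, and at 67.0 and 67.1 CPM in the wild type. *dpr10* (FBgn0052057, chromosome 3L, positions 10147454 to 10186108), which in muscle serves as the partner of DIP-alpha on motor neurons, was at 7.09 and 9.25 CPM, 6.18 and 6.54 CPM, and 34.5 and 34.3 CPM. These neighboring genes, 8094 bases apart, had tumor libraries far below the wild type, at log2 fold changes of -1.96 and -2.08 in *poxn > prosRNAi, SypRNAi* tumors and -2.46 and -2.43 in *poxn > prosRNAi* tumors, and all 4 were called. The summed level of the group was 84.4 and 102 CPM, 96.2 and 115 CPM, and 154 and 158 CPM, of which *DIP-alpha* made up the larger part in every tumor library.

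In the other pairs both partners were lower in the tumors. *DIP-gamma* (FBgn0039617, chromosome 3R, positions 28925004 to 28970372) encodes the receptor of Dpr11, known from motor neurons and the color-vision circuit of the optic lobe. It was at 11.2 and 13.6 CPM in *poxn > prosRNAi, SypRNAi* tumors, at 7.76 and 9.36 CPM in *poxn > prosRNAi* tumors, and at 49.1 and 50.3 CPM in the wild type. *dpr11* (FBgn0053202, chromosome 3R, positions 6529169 to 6593330) was at 19.2 and 28.3 CPM, 14.8 and 18.9 CPM, and 102 and 101 CPM. In *poxn > prosRNAi* tumors their log2 fold changes against the wild type were -2.53 and -2.58. *DIP-delta* (FBgn0085420, chromosome 3L, positions 5424109 to 5442399), which with *dpr12* marks zones of mushroom body axons, was at 16.7 and 26.5 CPM in *poxn > prosRNAi, SypRNAi* tumors, at 13.3 and 16.1 CPM in *poxn > prosRNAi* tumors, and at 86.0 and 91.3 CPM in the wild type. *dpr12* was at 48.5 and 66.3 CPM, 34.7 and 41.1 CPM, and 206 and 216 CPM. Their log2 fold changes against the wild type were -2.59 and -2.47 in *poxn > prosRNAi* tumors and -2.04 and -1.88 in *poxn > prosRNAi, SypRNAi* tumors, all called. No partner of these 3 groups passed the test between the tumors. The values were 0.54 for *DIP-gamma*, 0.49 for *dpr11*, 0.55 for *DIP-delta*, 0.60 for *dpr12*, 0.51 for *dpr6* and 0.36 for *dpr10*, with adjusted p-values of 0.067 to 0.19 in edgeR. *DIP-gamma* and *dpr12* were called higher by 4 of the alternatives that used every library, namely library totals, the Wald test of DESeq2, a joint fit of all 6 libraries and the replicate block. Of the other partners, *dpr6* was called higher with library totals, and *dpr11* and *DIP-delta* with the replicate block.

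**Figure D4:**
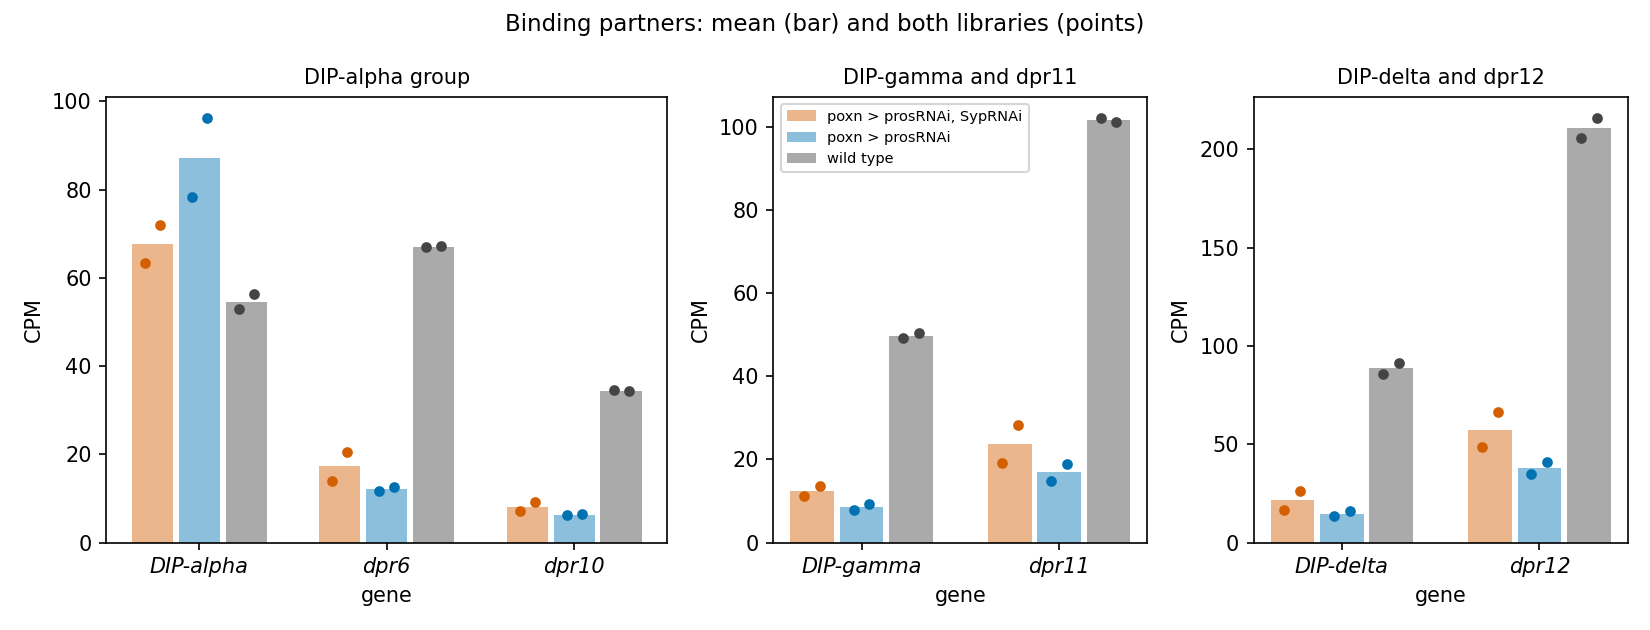
Level in CPM (y axis) of *DIP-alpha*, *dpr6* and *dpr10*, of *DIP-gamma* and *dpr11*, and of *DIP-delta* and *dpr12* (x axis), with bars at the mean and points for the 2 libraries of *poxn > prosRNAi, SypRNAi* tumors, *poxn > prosRNAi* tumors and the wild type. *DIP-alpha* is above its wild-type level in every tumor library, and the other 6 genes are below theirs.

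DIP-gamma also binds the products of *dpr15*, *dpr16* and *dpr17*. In this group of 5 genes, all were lower against the wild type in both tumors, with medians of -1.95 in *poxn > prosRNAi, SypRNAi* tumors and -2.26 in *poxn > prosRNAi* tumors. In the group of *DIP-eta*, *DIP-theta* and *DIP-iota* with *dpr1* to *dpr5*, 7 of 8 genes were lower in each tumor, with *DIP-iota* not called. Its medians were -1.89 in *poxn > prosRNAi, SypRNAi* and -2.28 in *poxn > prosRNAi* tumors. Beside both groups, 36.7% of all genes tested were called lower in *poxn > prosRNAi, SypRNAi* and 40.7% in *poxn > prosRNAi* tumors. *dpr1*, whose mutant's defective proboscis extension response gave the family its name, is in this group. None of the 8 genes of this group was called between the tumors, where their median was 0.25.

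The remaining 13 members were *dpr1*, *dpr3*, *dpr4*, *dpr5*, *dpr8*, *dpr14*, *dpr15*, *dpr16*, *dpr17*, *dpr20*, *DIP-epsilon*, *DIP-eta* and *DIP-theta*. Their levels ranged from 3.04 to 20.0 CPM in *poxn > prosRNAi, SypRNAi* tumors, from 2.93 to 15.3 CPM in *poxn > prosRNAi* tumors and from 16.0 to 79.8 CPM in the wild type. In 13 of 13 both libraries of each tumor were below both wild-type libraries, which held for 44.1% of all genes tested in *poxn > prosRNAi, SypRNAi* and 45.9% in *poxn > prosRNAi* tumors. Against the wild type their log2 fold changes were -2.31 to -1.44 in *poxn > prosRNAi, SypRNAi* tumors and -2.58 to -1.82 in *poxn > prosRNAi* tumors. All 13 were called lower in both, beside 36.7% and 40.7% of all genes tested in the same order. Between the tumors their values were 0.076 to 0.71 and none was called, and in 7 of 13 both libraries with *Syp* knockdown were the higher ones, beside 33.7% of all genes tested. Among the alternatives that used every library, *dpr1* and *dpr16* were called higher with library totals, DESeq2's Wald test, the joint fit of all 6 libraries and the replicate block, *dpr8* with the Wald test and the block, and *dpr4* with the block. For *dpr4* and *DIP-theta*, exons of another gene cover 15.7% and 12.6% of the exon length. Reads were counted without regard to strand, so that reads from *dpr4* and its antisense neighbor *asRNA:CR45056* cannot be told apart.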

How the data were processed

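RNA was sequenced from 6 libraries of adult VNCs. For the tumors the methods describe stranded libraries of total RNA depleted of ribosomal RNA, whereas the labels call the RNA polyA. The authors mapped the reads with Subread. Their exon counts were made by featureCounts 1.5.0 (FlyBase release 6.19, unstranded, a read given to every gene it overlaps), and the deposited values are these raw counts per gene. The labels name dm3, whereas the positions of all 30 members match Release 6. Groups came from the sample labels. Counts were analysed in R 4.3.3 with edgeR 4.0.16 (TMM, filterByExpr with a minimum count of 10, prior count 2, quasi-likelihood test, Benjamini-Hochberg adjustment over all genes tested, threshold 0.05), on the 4 libraries of each comparison. All 30 members passed the filter in each. CPM and RPKM were computed from the 6 libraries with TMM. Standard errors come from the fits. The alternatives were DESeq2 1.42.0 size factors or its Wald test, library totals, other filters, all libraries in one fit, a replicate block, a threshold of 0.001 and leaving out each library. Figures were drawn with matplotlib 3.10.9.

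The fits were tested on simulated data that carried known changes. Values in every library are given by rule for the members called between the tumors, the 3 largest and 3 smallest changes in *poxn > prosRNAi* tumors against the wild type, the pairs of DIP-alpha, DIP-gamma and DIP-delta, and the 3 highest wild-type levels per length. The members, marker lists and other recognition genes were chosen with earlier results of these data known, and these lists were given no test of their own. Sequence similarity between members, through which reads could be shared, was not examined.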

Additional observations from a re-analysis of the deposited data

How the results depend on the processing

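Against the wild type, the alternatives at 0.05 that used every library called 34.2% to 45.7% of all genes lower in *poxn > prosRNAi* tumors. In *poxn > prosRNAi, SypRNAi* tumors they called 30.4% to 39.2% lower. At 0.001 the shares were 24.9% in *poxn > prosRNAi* and 14.4% in *poxn > prosRNAi, SypRNAi* tumors. Of the members, 28 were lower in each tumor under all these alternatives at 0.05. With libraries left out there were 28 in *poxn > prosRNAi* and 26 to 28 in *poxn > prosRNAi, SypRNAi* tumors, and at 0.001 there were 28 in *poxn > prosRNAi* and 15 in *poxn > prosRNAi, SypRNAi* tumors. The call of *DIP-alpha* as the 1 higher member was lost at 0.001 in both (0), and in *poxn > prosRNAi, SypRNAi* tumors also with DESeq2 size factors (0), library totals (0), DESeq2's Wald test (0) and all 6 libraries in one fit (0), and gave 0 to 1 with libraries left out. Between the tumors, the count of 7 higher members became 12 with library totals, 12 with DESeq2's Wald test, 11 with all 6 libraries in one fit (where 17.8%, 14.6% and 13.8% of all genes were called higher), 0 at 0.001, and 0 to 16 with libraries left out. The 7 genes were called in each of the 7 alternatives that used all libraries at 0.05. The count of 0 lower members became 1 with 10 counts in every library (*dpr21*), 2 with DESeq2's Wald test (*dpr21* and *DIP-alpha*), 1 with all 6 libraries in one fit (*dpr21*), beside 13.3%, 15.2% and 14.6% of all genes, and 0 to 1 with libraries left out. With the replicate number as a block, 15 members were higher and 2 lower between the tumors, beside 12.7% and 12.6% of all genes. The labels tie no animal or batch to these numbers. The deviations of same-numbered libraries had a correlation of 0.33 between the tumors over 14451 genes. It was -0.24 between *poxn > prosRNAi* tumors and the wild type, and -0.062 between *poxn > prosRNAi, SypRNAi* tumors and the wild type. Leaving out a library turned the direction of 6 members that were not called between the tumors, with ranges of -0.033 to 0.71 for *DIP-theta*, -0.081 to 0.22 for *DIP-eta*, -0.17 to 0.21 for *DIP-iota*, -0.056 to 0.46 for *dpr17*, -0.19 to 0.41 for *dpr3* and -0.15 to 0.19 for *dpr2*. Where a condition was left with 1 library, it was assumed to vary like the other. Scaling by library totals shifted the median of all genes to 0.15 between the tumors and to -0.27 in *poxn > prosRNAi* tumors against the wild type, with family medians of 0.63 and -2.73. The cause of these differences was not tested. With 2 libraries per condition, the tests limit the results more than the depth does, and no member turned direction under a change of scaling.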
